A study of Gallus gallus with 32 samples.

Results

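Blood gene expression was compared between broiler chickens whose sample titles carry the numbers 17 to 32 and those whose titles carry 1 to 16. The number in the title alone placed a bird in its set, so 16 and 16 birds, all 32 arrays of the study, entered the comparison. The titles do not say what the number stands for, and any step of housing, sampling or laboratory work that followed it cannot be told apart from it. The study itself compared a standard control diet with the same diet supplemented with comfrey, a herb, in whole blood. Every bird is labelled a broiler chicken, and each array carries RNA of 1 bird. Birds 1 to 16 were 8 control birds (6 females and 2 males) and 8 comfrey-fed birds (4 females and 4 males). Birds 17 to 32 were 8 control birds (2 females and 6 males) and 8 comfrey-fed birds (4 females and 4 males). Diet was therefore even over the sets and sex was not, with 10 females and 6 males against 6 females and 10 males. All labels give an age of 32 under a tag in months, an unusual age for this breed. RNA came from frozen, ground blood clots and was labelled with the GeneChip WT PLUS kit.

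Blood of birds differs from that of mammals in that both red cells and thrombocytes keep their nuclei and their RNA. Thrombocytes are the clotting cells of birds and do the work of mammalian platelets: they adhere through glycoprotein receptors and integrins, spread by remodelling actin, and carry receptors of innate immunity. T cells, B cells, heterophils (the avian counterpart of neutrophils) and monocytes make up the white cells, while red cells and their globin messages dominate whole blood RNA. A clotted sample holds all of these cell types.

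The arrays of both sets were alike in scale, with array medians of the log2 signal between 6.52 and 6.60 in birds 1 to 16 and between 6.51 and 6.56 in birds 17 to 32. The W-linked gene HINTW lay at 11.6 or higher in every female and at 5.54 or lower in every male, and no bird went against its sex label. Checked against defining markers of blood, the globins HBAD and HBA1 had mean log2 signals of 13.87 and 13.67, and markers of thrombocytes (GP9, 7.58) and T cells (CD3E, 9.28) were measured too. Arrays give no counts, and the number of birds limits the precision.

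The sets differed in 522 of the 17894 probe sets tested, or 2.92%, in a limma fit with diet and sex as covariates and Benjamini-Hochberg adjustment over all probe sets (an adjusted p under 0.05 counts as a call, and 3189 passed that level unadjusted). In birds 17 to 32, 396 probe sets (2.21% of those tested) were higher and 126 (0.704%) were lower. The rises were larger than the falls: the median difference was 0.46 on the log2 scale among the higher calls and reached 1.62, while the median size was 0.29 among the lower calls. Of the higher calls 36 reached a log2 difference of 1, against 2 of the lower calls. The median over all probe sets was -0.03. Among called probe sets with 1 gene symbol, 296 genes were higher and 65 lower, and another 154 called probe sets carried no symbol. All 396 higher and all 126 lower calls had the same sign in control birds, comfrey-fed birds, females and males. The calls were chosen on all these birds together, so the equal signs are a description and not a test. Without bird 13 the calls numbered 807, of which 319 were lower, and the lower calls fell to 70, 65, 77 and 82 without birds 2, 3, 4 and 23 in turn.

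The thrombocyte markers GP9, FLI1 and ITGB3 were all higher in birds 17 to 32. GP9, part of the glycoprotein receptor complex for von Willebrand factor, had log2 signals of 5.71 to 7.54 (median 6.90) in birds 1 to 16 and 6.74 to 9.75 (median 8.55) in birds 17 to 32. FLI1, an ETS transcription factor of the megakaryocyte and thrombocyte lineage, had log2 signals of 8.67 to 9.49 (median 9.21) in birds 1 to 16 and 9.50 to 10.59 (median 9.96) in birds 17 to 32. ITGB3, the beta chain of the platelet fibrinogen receptor, had log2 signals of 6.80 to 8.26 (median 7.37) in birds 1 to 16 and 7.45 to 9.53 (median 8.57) in birds 17 to 32. FLI1 was the only probe set on the array whose values did not overlap between the sets: bird 9 was highest in the first set and bird 17 lowest in the second. For GP9, 15 of 16 birds in the second set lay above the highest bird of the first, bird 4, and bird 18 did not. Birds 1, 2, 3 and 7 were the lowest of all in GP9, and bird 29 was the highest in all 3 markers. The differences were 1.62 ± 0.23 (SE) for GP9, a 3.08-fold higher signal, 0.72 ± 0.10 for FLI1 and 0.93 ± 0.16 for ITGB3 on the log2 scale, with adjusted p of 0.000149, 0.000149 and 0.000549 from limma. In whole blood, fewer cells of a type and less RNA per cell cannot be told apart, here and for every cell type named.

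**Figure D1:**
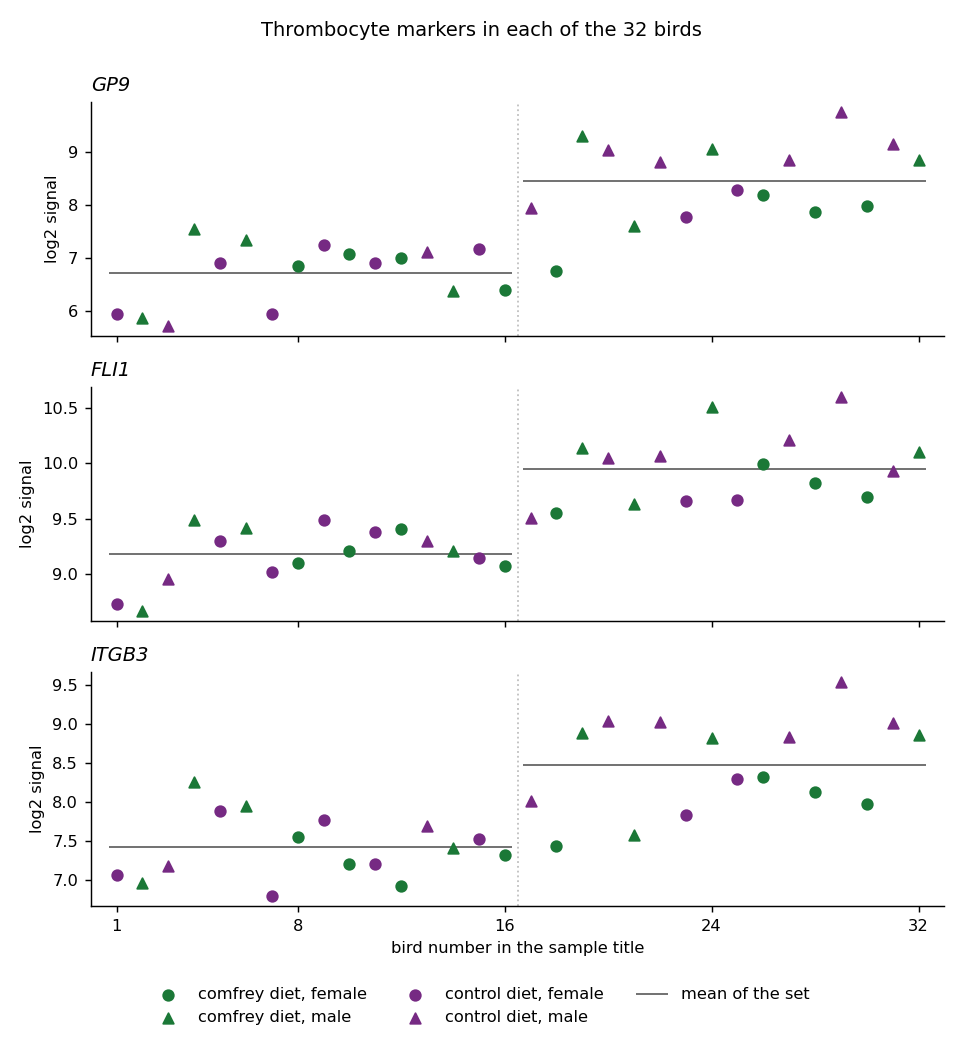
Log2 signal of GP9, FLI1 and ITGB3 (vertical axes) against the bird number in the sample title (horizontal axis), with 1 point per bird, colour for diet, shape for sex and a line at each set's mean. Set means are higher in birds 17 to 32, without overlap of birds for FLI1 (highest 9.49 in the first set, lowest 9.50 in the second). Bird 18 lies within the first set's range in GP9, and 10 of 16 birds lie above that range in ITGB3. Bird 29, a control male, is highest in all 3 genes.

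Across the list of thrombocyte genes, 13 of the 30 measured (43.3%) were higher and none was lower, with a median difference of 0.34. Over the 9680 genes with a symbol 3.61% were called and the median was -0.03. This list and those below were chosen with earlier results of these data known, so their counts describe and do not test. RGS18, a regulator of G protein signalling found in platelets, had log2 signals of 7.17 to 8.81 (median 8.01) in birds 1 to 16 and 8.13 to 10.25 (median 9.24) in birds 17 to 32, a difference of 1.20 ± 0.18 (limma adjusted p = 0.000155). PLEK (pleckstrin, the main substrate of protein kinase C in platelets) rose by 1.04 ± 0.16 and TUBB1, the tubulin of the platelet marginal band, by 0.96 ± 0.18. F13A1, the fibrin-stabilising factor, had log2 signals of 6.96 to 8.72 (median 8.01) in birds 1 to 16 and 7.93 to 10.34 (median 9.39) in birds 17 to 32. Birds 18, 21 and 23 lay within the first set's range, and 13 of 16 birds of the second set exceeded it. Other members that rose were PLCG2 (0.85) and SYK (0.54), which carry the signal of adhesion receptors and are shared with other white cells. MEIS1, GP1BB, GNAQ and SELP, named after their values were seen, also rose, by 0.47, 0.57, 0.24 and 0.34. Classical platelet genes that did not pass included P2RY1 (0.19 ± 0.11), F5 (-0.01 ± 0.07), GFI1B (0.08 ± 0.06) and THBS1 (0.08 ± 0.09), also named after their values were seen. VWF had a mean log2 signal of 2.76 and a difference of 0.10 ± 0.40. The list's mean per bird ran over 6.84 to 7.59 (median 7.22) in birds 1 to 16 and 7.36 to 8.01 (median 7.66) in birds 17 to 32. Bird 18 was lowest in the second set, bird 4 was highest in the first, and 9 of 16 birds of the second set exceeded the first. The list's median difference was 0.44 in comfrey-fed and 0.23 in control birds, and 0.46 in males and 0.28 in females.

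Genes of serotonin handling were higher by about the same amount as the strongest thrombocyte genes. Thrombocytes store serotonin: SLC6A4 takes it up from plasma, SLC18A2 loads it into granules and HTR2A is a receptor for it. SLC18A2 had log2 signals of 5.01 to 7.05 (median 6.43) in birds 1 to 16 and 6.53 to 8.48 (median 7.54) in birds 17 to 32. SLC6A4 had log2 signals of 7.62 to 9.05 (median 8.02) in birds 1 to 16 and 8.14 to 10.64 (median 9.34) in birds 17 to 32, and HTR2A of 5.65 to 7.37 (median 6.78) in birds 1 to 16 and 6.56 to 8.89 (median 8.07) in birds 17 to 32. In SLC18A2 and HTR2A, 12 of 16 birds of the second set exceeded every bird of the first. GCH1, which makes the cofactor tetrahydrobiopterin, had a difference of 1.07 ± 0.16 with 15 of 16 birds above the first set. The differences were 1.19 ± 0.19, 1.00 ± 0.19 and 1.07 ± 0.20 for the transporters and the receptor, with limma adjusted p of 0.00026, 0.00206 and 0.00135. Of the 7 measured genes of the list these 4 passed (57.1%, against 3.61% of all genes with a symbol). SPR (-0.12 ± 0.06), PTS (-0.19 ± 0.13) and QDPR (-0.07 ± 0.17), which make or recycle the same cofactor, did not.

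Of the 14 largest rises among named genes, those not in the thrombocyte and serotonin lists follow. CSTA, an inhibitor of cysteine proteases, had log2 signals of 5.47 to 7.45 (median 6.81) in birds 1 to 16 and 7.03 to 9.37 (median 8.46) in birds 17 to 32. TFPI, the inhibitor of the tissue factor pathway, had log2 signals of 4.37 to 6.15 (median 5.39) in birds 1 to 16 and 5.32 to 7.85 (median 7.03) in birds 17 to 32. CALCRL, the receptor for calcitonin gene-related peptide and adrenomedullin, had log2 signals of 4.75 to 6.27 (median 5.46) in birds 1 to 16 and 5.47 to 7.85 (median 6.81) in birds 17 to 32. For each of these 3 genes 14 of 16 birds in the second set lay above the highest bird of the first, bird 18 was the lowest of the second set and bird 29 the highest. Their differences were 1.54 ± 0.23, 1.49 ± 0.22 and 1.33 ± 0.18, with limma adjusted p of 0.000149, 0.000149 and 0.000134. ASAP2, a GTPase-activating protein of membrane traffic, rose by 1.30 ± 0.19 and MYCT1 by 1.23 ± 0.17. SSFA2, FAM46D and KCNMA1, the pore of the large-conductance calcium-activated potassium channel, rose by 1.17 ± 0.18, 1.15 ± 0.17 and 1.15 ± 0.17, and a second probe set of KCNMA1 rose by 0.66 ± 0.11. SLA, an adaptor that dampens antigen receptor signalling (1.40 ± 0.37), and GNAL, a G protein alpha subunit (1.32 ± 0.28), rose as far on average with wider errors. In GNAL bird 18, the lowest of its set in GP9, was among the highest. SLA ranged over 2.07 to 6.38 (median 5.04) in birds 1 to 16 and 4.47 to 6.80 (median 6.11) in birds 17 to 32, so the sets overlapped widely, and its adjusted p of 0.0304 exceeded 0.05 in 4 of the 32 fits that leave out a bird, among them those without bird 3 (0.0754).

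**Figure D2:**
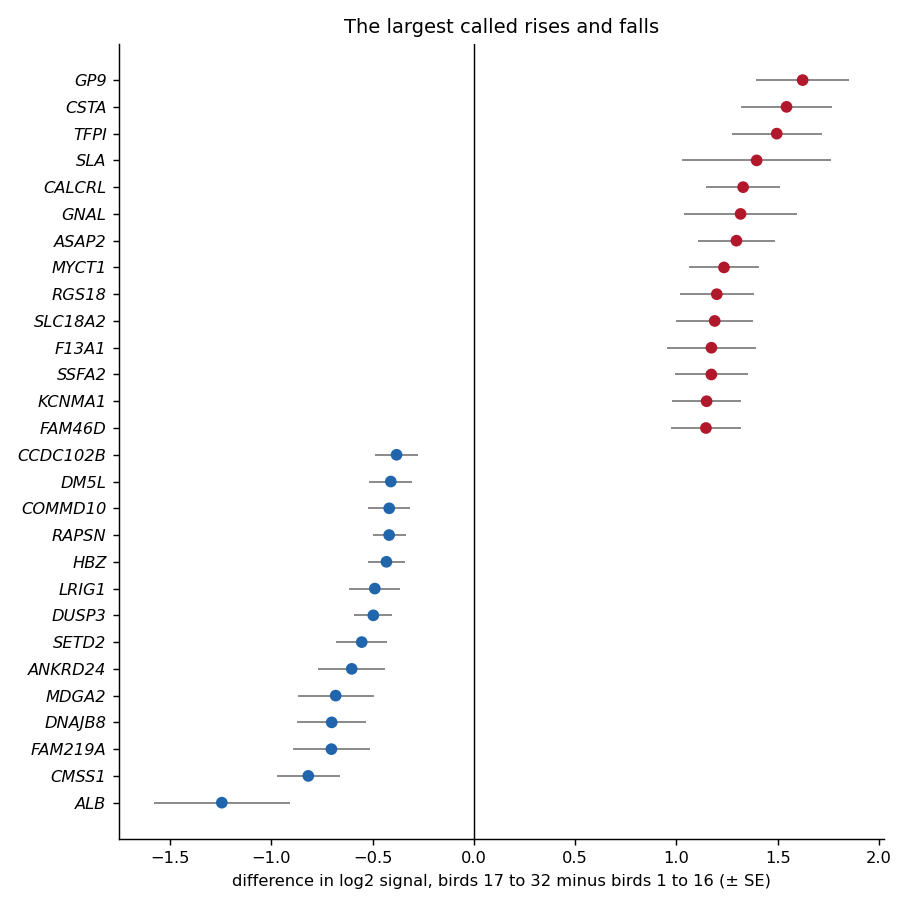
Difference in log2 signal between birds 17 to 32 and birds 1 to 16 (horizontal axis) for the 14 largest called rises and 14 largest called falls, with bars of 1 SE. The rises run from 1.15 to 1.62 and the falls from -0.38 to -1.24.

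T cell genes were higher in birds 17 to 32 by smaller amounts. Of the 22 measured genes of the list 8 were higher and none lower (36.4%, against 3.61% of all genes with a symbol), and the median difference was 0.26, against -0.03. UBASH3A, a suppressor of T cell receptor signalling, had log2 signals of 7.84 to 8.78 (median 8.28) in birds 1 to 16 and 7.98 to 9.00 (median 8.71) in birds 17 to 32, a difference of 0.42 ± 0.09 (limma adjusted p = 0.00506). GATA3, the transcription factor of T cell development, had log2 signals of 10.15 to 10.57 (median 10.31) in birds 1 to 16 and 10.37 to 10.93 (median 10.51) in birds 17 to 32 and differed by 0.20 ± 0.05 (0.0161). CTLA4, the inhibitory receptor of activated T cells, had log2 signals of 5.87 to 7.18 (median 6.63) in birds 1 to 16 and 6.15 to 7.41 (median 6.98) in birds 17 to 32 and differed by 0.42 ± 0.11 (0.0349). The ranges overlapped in all 3 genes, but all 16 birds of the second set lay above the first set's median in GATA3. Bird 31, high in thrombocyte genes, was the lowest of the second set in UBASH3A and CTLA4. SH2D1A, an adaptor of T and natural killer cells, rose by 0.61 ± 0.16. IL7R (the interleukin-7 receptor), CCR7 (the lymph node homing receptor) and CD40LG (the helper T cell ligand for B cells) rose by 0.37, 0.38 and 0.35. PRKCB, a protein kinase C isoform that B cells and platelets also use, rose by 0.37. The CD3 chains CD3E and CD3D, which accompany the T cell receptor, did not pass, with differences of 0.22 ± 0.08 and 0.15 ± 0.11. CD4 (0.27 ± 0.09) did not pass either, and all of these were named after their values were seen.

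Several of the T cell calls sat near the threshold, and IL7R, CD40LG, CTLA4, CCR7 and SH2D1A lost theirs in 24, 17, 11, 10 and 4 of the 32 fits that leave out a bird. The count of 8 became 3 without bird 2, 3, 4 or 27, 4 without bird 7, 26 or 28, and 5 without bird 1, 8, 22, 24 or 25. The list's mean per bird ran over 7.45 to 7.93 (median 7.62) in birds 1 to 16 and 7.51 to 8.30 (median 7.90) in birds 17 to 32. Bird 6 was the highest of the first set and bird 31 the lowest of the second, and 8 of 16 birds of the second set exceeded the first.

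Cytotoxic genes had a larger median difference, 0.45, with fewer calls. Of 15 measured, 13 had positive differences, against 3946 of the 9680 genes with a symbol. Of the 15, 2 were called (13.3%, against 3.61% of all genes with a symbol). IL18RAP, a chain of the interleukin-18 receptor, had log2 signals of 4.91 to 6.16 (median 5.53) in birds 1 to 16 and 5.42 to 6.52 (median 6.13) in birds 17 to 32. CST7, a cystatin of cytotoxic granules, had log2 signals of 6.37 to 7.12 (median 6.95) in birds 1 to 16 and 6.77 to 8.49 (median 7.42) in birds 17 to 32. They differed by 0.52 ± 0.11 and 0.59 ± 0.13, with limma adjusted p of 0.0059 and 0.00873, and CST7 overlapped less, with 13 of 16 birds above the first set. GZMA, a granule protease, had log2 signals of 5.32 to 7.50 (median 5.86) in birds 1 to 16 and 5.70 to 8.25 (median 6.73) in birds 17 to 32, a difference of 0.70 ± 0.24 that did not pass (0.113). EOMES (0.90 ± 0.30), LOC769174, annotated with the synonym KLRD1 (1.08 ± 0.36), CD7 (0.77 ± 0.24), XCL1 (0.45 ± 0.17) and GZMK (0.58 ± 0.23) did not pass either. PRF1 (0.08 ± 0.07), IFNG (0.03 ± 0.06) and LAG3 (-0.08 ± 0.07), named after their values were seen, hardly differed. IFNG was dim, at a mean log2 signal of 3.00, so its value says little. The list's median difference was 0.54 in males and 0.15 in females. Among males the difference in EOMES was 1.66 and among females 0.15, without a called interaction with sex (limma adjusted p = 0.818). The list's mean per bird ran over 5.43 to 6.07 (median 5.69) in birds 1 to 16 and 5.76 to 6.95 (median 5.97) in birds 17 to 32, with bird 24 highest. The count of 2 became 4 without bird 13 and 4 without bird 31. After additive effects of set, diet and sex were removed, the cytotoxic mean varied with the thrombocyte mean (r = 0.55 over the 32 birds, which share the array's normalization). A set difference of unlike size in males and females stays in these values. The part of thrombocytes in the cytotoxic difference was not tested.

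**Figure D3:**
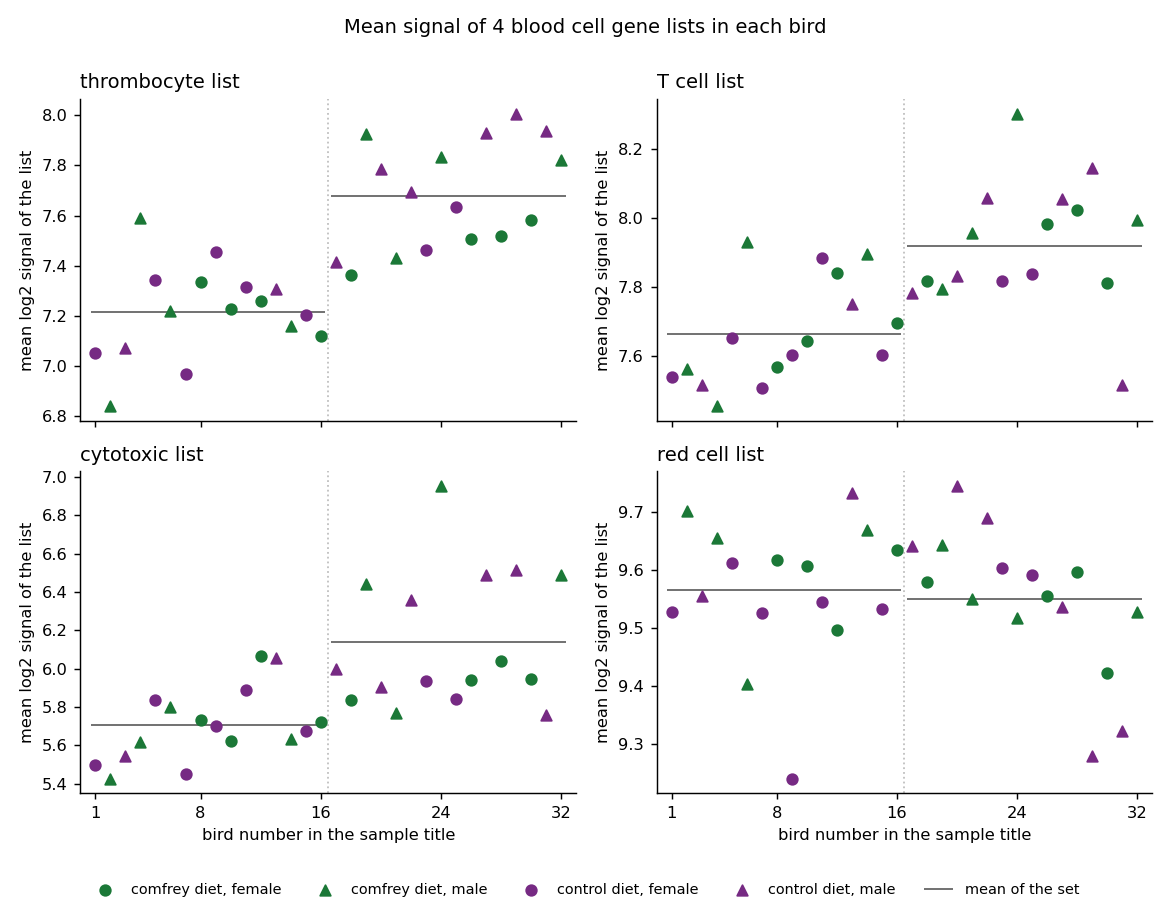
Mean log2 signal of the thrombocyte, T cell, cytotoxic and red cell lists (vertical axes) against bird number (horizontal axis), with 1 point per bird, colour for diet, shape for sex and a line at each set's mean. The thrombocyte, T cell and cytotoxic means are higher in birds 17 to 32, and the red cell means of the sets lie at 9.57 and 9.55.

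Of 30 measured red cell genes none was higher and 1 was lower, with a median difference of -0.02. That is 3.33% called, near the 3.61% and the median of -0.03 over all genes with a symbol. HBZ, an embryonic alpha-type globin, had log2 signals of 6.12 to 6.96 (median 6.59) in birds 1 to 16 and 5.51 to 6.60 (median 6.17) in birds 17 to 32 and fell by 0.43 ± 0.09 (limma adjusted p = 0.0059). A second probe set of HBZ differed by -0.16 ± 0.07 and did not pass (0.234). Of the main globins, HBA1 differed by -0.08 ± 0.03 and HBAD by -0.02 ± 0.04, and neither passed. TFRC, the transferrin receptor, differed by -0.22 ± 0.07 (0.0866) and CA2, carbonic anhydrase, by -0.15 ± 0.08 (0.371). The list's mean per bird ran over 9.24 to 9.73 (median 9.58) in birds 1 to 16 and 9.28 to 9.74 (median 9.57) in birds 17 to 32. Birds 9, 29 and 31 had the lowest red cell means, 1 in the first set and 2 in the second. The count of 1 became 2 without bird 6 and 2 without bird 17.

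Of the markers of other white cells, 1 of 17 B cell, 1 of 14 heterophil and 2 of 14 monocyte genes were called, or 5.88%, 7.14% and 14.3%, against 3.61% of all genes with a symbol. BTK, a kinase of B cells that platelets also use, was the called B cell gene (0.44 ± 0.10, limma adjusted p = 0.00603), and the B cell antigen receptor chain CD79B differed by 0.11 ± 0.10, a value named after it was seen. TLR4 was the called heterophil gene, and CSF3R (0.10 ± 0.07), named after its value was seen, was not. Of the monocyte genes TLR2 and SPI1, the master transcription factor of myeloid cells, were called (0.56 ± 0.14 and 0.37 ± 0.10). TLR2 was dim, at a mean log2 signal of 4.07. The brighter TLR2A of the same list (6.66) differed by 0.18 ± 0.08 and did not pass. SPI1 lost the call in 18 of the 32 fits that leave out a bird (limma adjusted p up to 0.092, without bird 2). CX3CR1 was not called (0.71 ± 0.21, limma adjusted p = 0.051). The medians of the B cell, heterophil and monocyte lists were 0.09, 0.12 and 0.07.

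Toll-like receptors, which chicken thrombocytes are known to carry, were then gathered into a list after values had been seen. Of its 12 measured genes 4 were higher (33.3%, against 3.61% of all genes with a symbol), which describes and does not test. Among these 4 are TLR4 and TLR2, already called in the heterophil and monocyte lists. TLR4, the receptor for bacterial lipopolysaccharide, had log2 signals of 7.12 to 8.14 (median 7.60) in birds 1 to 16 and 7.82 to 9.02 (median 8.33) in birds 17 to 32, a difference of 0.75 ± 0.11 with 12 of 16 birds above the first set. LY96, the partner that presents lipopolysaccharide to TLR4, differed by 0.42 ± 0.11, a call lost in 15 of the 32 fits that leave out a bird, as that of TLR3 was in 2. TLR3, the receptor for double-stranded RNA, differed by 0.93 ± 0.24, with a highest value of 9.45 in bird 31. TLR5 (0.15 ± 0.08) and the adaptor TIRAP (0.08 ± 0.09) did not pass.

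Lists of interferon, stress and general metabolism were read in the same way. None of 24 interferon-stimulated genes was called by limma, and the median was 0.19. Positive differences were found in 20 of them, against 3946 of the 9680 genes with a symbol. All are read on the same birds, so the signs are not separate observations. The list's median difference was 0.03 in comfrey-fed and 0.40 in control birds. In the list's mean per bird, 1 of 16 birds of the second set exceeded the first. In limma 6 of the 24 genes had an unadjusted p under 0.05, against 3189 of all 17894 probe sets. MX1, the antiviral GTPase, had log2 signals of 5.51 to 9.18 (median 6.60) in birds 1 to 16 and 6.53 to 11.99 (median 7.98) in birds 17 to 32, where bird 31 was highest and bird 6 led the first set, and differed by 1.18 ± 0.37 (adjusted p = 0.0805). Of 33 immediate early and inflammatory genes KLF2, PIM1, PIM3 and KLF6 were higher, by 0.52, 0.41, 0.36 and 0.47. That is 12.1% of the list, against 3.61% of all genes with a symbol. The list's median was 0.13, and 13 of its differences were negative. JUN (0.25 ± 0.08) and MYC (0.31 ± 0.09) did not pass. LDHA, lactate dehydrogenase A, was the only called gene of 20 in the hypoxia and glycolysis list (0.43 ± 0.09) and CENPF the only one of 30 in the cell cycle list (0.38 ± 0.10). These are 5% and 3.33%, near the 3.61% of all genes with a symbol, and CENPF lost the call in 20 of the 32 fits that leave out a bird (adjusted p up to 0.0938, without bird 2). Limma called none of 23 heat shock, 33 ribosomal, 42 mitochondrial ribosomal, 50 respiratory chain, 23 proteasome and 45 translation factor genes, with medians between -0.05 and 0.04. In the same order 1, 4, 2, 7, 2 and 8 of them had an unadjusted p under 0.05. None of these lists had a larger share than the 3189 of all 17894 probe sets.

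Actin and adhesion genes and genes of immunoreceptor signalling were gathered after their values had been seen, so their counts describe and do not test. Of 33 actin and adhesion genes 19 were higher (57.6%, against 3.61% of all genes with a symbol). INF2, a formin that nucleates actin, had log2 signals of 6.28 to 7.83 (median 7.04) in birds 1 to 16 and 7.04 to 9.27 (median 8.19) in birds 17 to 32 and differed by 1.07 ± 0.17. PLS3 (plastin 3), CTTN (cortactin), PARVB and GSN (gelsolin) differed by 1.04, 1.02, 0.90 and 0.74, and TMSB4X, the abundant actin-binding thymosin, by 0.33 ± 0.07 at a mean signal of 12.03. ACTG1 (-0.15 ± 0.06) and ACTN4 (-0.02 ± 0.07), named after their values were seen, did not pass. Of the 33 differences 3 were negative. Of 40 genes of immunoreceptor and phosphoinositide signalling 25 were higher (62.5%, against the same 3.61%). The lists overlap: PLCG2, SYK, UBASH3A, SH2D1A, PRKCB and BTK are among the 25 and were also called in lists above. PIK3CD, the leukocyte phosphoinositide 3-kinase, had log2 signals of 7.14 to 7.97 (median 7.70) in birds 1 to 16 and 7.86 to 8.90 (median 8.40) in birds 17 to 32, with 15 of 16 birds above the first set. It differed by 0.70 ± 0.10, and DAPP1, which binds the kinase's lipid product, by 0.53 ± 0.07 with an adjusted p of 0.000129, which 2 other probe sets share as the lowest on the array. The phosphatases PTPN6 and INPP5D, which restrain such signals, were higher too, by 0.54 and 0.36. PLCG1 (-0.20 ± 0.19) and SRC (-0.09 ± 0.07), named after their values were seen, did not pass. Of the 40 differences 4 were negative. Some calls of both lists were lost in fits that leave out a bird.

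**Figure D4:**
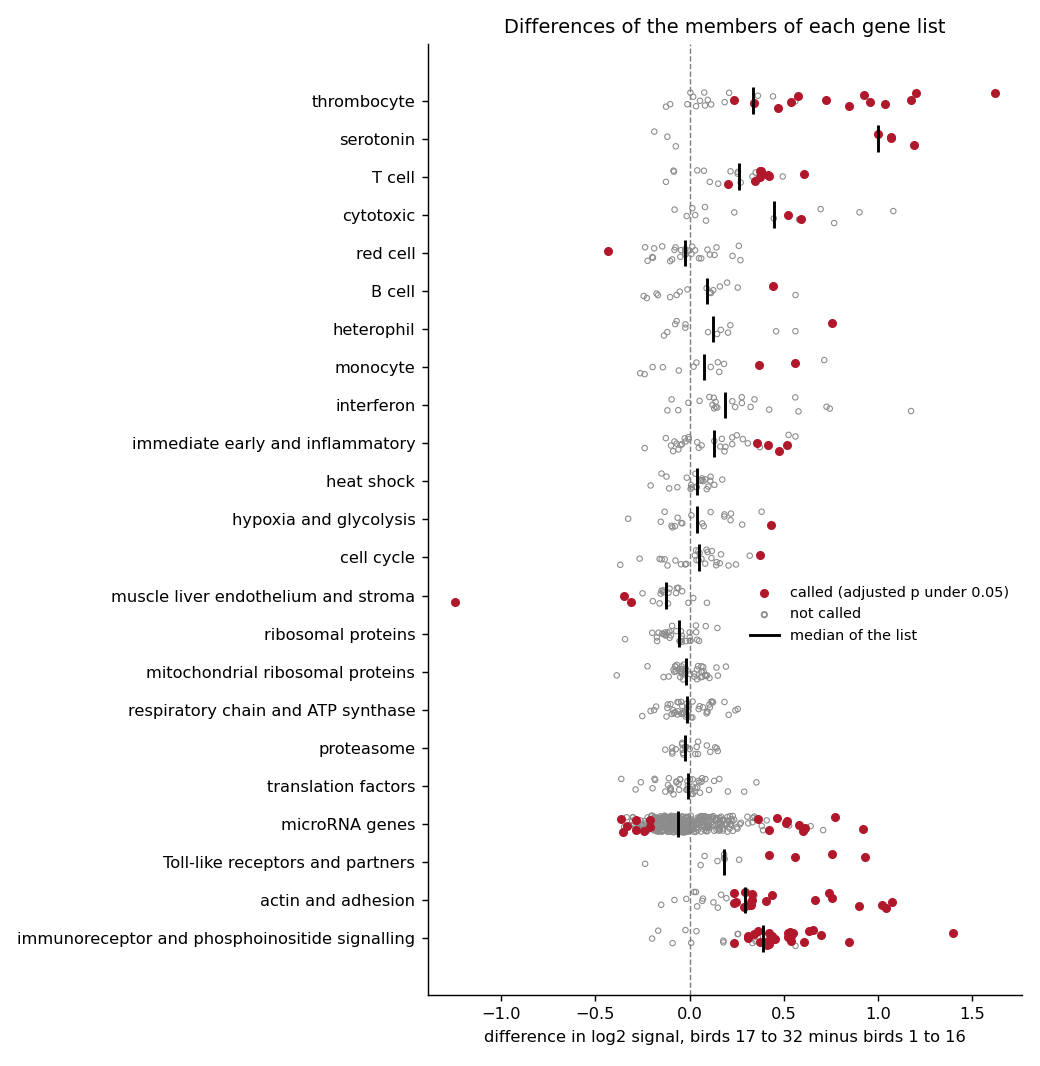
Difference in log2 signal between the sets (horizontal axis) for each measured member of 23 gene lists (rows), with filled points for called genes, open points for the others and a bar at each list's median. The thrombocyte and serotonin medians are 0.34 and 1.00, the red cell median is -0.02, and the 4 lowest rows were gathered after values were seen. The other lists were chosen with earlier results of these data known.

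Probe sets of microRNA genes gave 10 higher and 8 lower calls among 394 genes, a list also formed after values were seen. That is 4.57%, near the 3.61% of all genes with a symbol, and the list's median of -0.06 lay near their -0.03. The labels describe no small RNA step, and these signals are not levels of mature microRNAs. MIR199B had log2 signals of 3.47 to 5.05 (median 4.21) in birds 1 to 16 and 3.87 to 5.63 (median 5.09) in birds 17 to 32, a difference of 0.92 ± 0.15 (limma adjusted p = 0.000375). MIR181B1 differed by 0.77 ± 0.17, MIR142, a blood-cell microRNA, by 0.42 ± 0.10, and MIR29C and MIR29B2, neighbours in 1 transcript in mammals, by 0.61 ± 0.17 and 0.60 ± 0.17, calls that were lost in 13 and 20 of the 32 fits that leave out a bird. Of the 8 lower genes MIR1591 differed most (-0.37 ± 0.09).

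Lower calls were smaller and fewer. ALB, serum albumin, made by the liver, had log2 signals of 4.71 to 8.32 (median 5.84) in birds 1 to 16 and 4.19 to 6.01 (median 4.72) in birds 17 to 32. It fell by 1.24 ± 0.33 (limma adjusted p = 0.034), and birds 1, 2 and 8 of the first set had the highest values, above 8. Without bird 2 its adjusted p was 0.0856, and the call was lost in 6 of the 32 fits that leave out a bird. TTR and FGG, also liver proteins of plasma, fell by 0.31 ± 0.07 and 0.35 ± 0.09 at mean signals of 4.97 and 4.51, and FGG lost the call in 5 of the fits that leave out a bird. These were the 3 lower calls of 20 muscle, liver, endothelial and stromal genes (15%, against 3.61% of all genes with a symbol), whose median was -0.13.

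CMSS1, a ribosomal small subunit factor by homology, had log2 signals of 5.73 to 7.05 (median 6.46) in birds 1 to 16 and 4.90 to 6.42 (median 5.64) in birds 17 to 32, a difference of -0.82 ± 0.16 (limma adjusted p = 0.00182), with 10 of 16 birds below every bird of the first set. DNAJB8, a co-chaperone, had log2 signals of 6.50 to 7.83 (median 7.02) in birds 1 to 16 and 5.61 to 7.42 (median 6.38) in birds 17 to 32 and differed by -0.70 ± 0.17, with 12 of 16 birds below the first set. SETD2, the methyltransferase of histone H3 lysine 36, differed by -0.55 ± 0.13, and DUSP3, a dual-specificity phosphatase, by -0.50 ± 0.09. RAPSN, which clusters acetylcholine receptors in muscle, had log2 signals of 7.74 to 8.78 (median 8.30) in birds 1 to 16 and 7.61 to 8.10 (median 7.88) in birds 17 to 32, and every bird of the second set lay below the first set's median. It differed by -0.42 ± 0.08, LRIG1 by -0.49 ± 0.13 and COMMD10 by -0.42 ± 0.10. FAM219A (-0.70 ± 0.19), MDGA2 (-0.68 ± 0.19), ANKRD24 (-0.60 ± 0.17), DM5L (-0.41 ± 0.11) and CCDC102B (-0.38 ± 0.11, mean signal 2.34) passed in the full fit and lost the call in 10, 15, 15, 4 and 15 of the fits that leave out 1 bird. The largest fall of all, 1.37, belonged to a probe set with no symbol.

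The 3 thrombocyte markers also varied among birds within a set, and many of the genes that rose varied with them. Additive effects of set, diet and sex were first removed. The mean of GP9, FLI1 and ITGB3 then correlated with 175 of the 396 higher probe sets (44.2%) at r above 0.5 over the 32 birds, the 3 markers included. Apart from the markers, 223 probe sets on the array (1.25%) did so, and 172 of them were called higher. All birds' values share the array and its normalization, and a set difference of unlike size in males and females stays in them. Among named genes r was 0.97 for RGS18, 0.95 for CSTA, 0.93 for F13A1, 0.92 for HTR2A and 0.91 for TFPI. It was lower for T cell genes (0.18 for UBASH3A, 0.15 for GATA3, 0.10 for CTLA4), for SLA (0.05), GNAL (0.19), MIR199B (0.12), TLR2 (0.17) and KLF2 (0.08). It was higher for PRKCB (0.73) and CST7 (0.71) of the T cell and cytotoxic lists, and 0.51 for TLR4. No lower call reached 0.5. Between list means, r over the 32 birds was 0.14 for thrombocyte and T cell genes, 0.70 for T cell and cytotoxic genes and -0.36 for thrombocyte and red cell genes. In a fit chosen after seeing the data that held the mean of the 3 markers as a further covariate, limma called 0 probe sets (0%), with 694 at an unadjusted p under 0.05. The covariate itself separated the sets, at 7.77 ± 0.38 (SD, n = 16) in birds 1 to 16 and 8.96 ± 0.55 (SD, n = 16) in birds 17 to 32, and the median SE of the set difference rose from 0.082 to 0.132. In that fit, where none passed, the difference was 0.95 ± 0.45 for GNAL, 1.26 ± 0.61 for SLA and -0.81 ± 0.26 for CMSS1. It was 0.04 ± 0.12 for CSTA and -0.03 ± 0.09 for RGS18. These are examples, and what part of any difference goes with thrombocytes was not tested.

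The set difference was examined within each diet. In models with a mean per diet and set, 173 probe sets (0.967%) were called in comfrey-fed birds and 68 (0.38%) in control birds, and the interaction of set and diet gave 0 calls in limma (753 at an unadjusted p under 0.05, lowest adjusted p 0.372). GP9 in comfrey-fed birds ran over 5.86 to 7.54 (median 6.93) in the first set and 6.74 to 9.30 (median 8.08) in the second. In control birds it ran over 5.71 to 7.25 (median 6.90) and 7.77 to 9.75 (median 8.83), values not adjusted for sex. Of 112 probe sets called when comfrey-fed birds were fitted alone, 105 had the same sign when control birds were fitted alone and 56 of them had an unadjusted p under 0.05 there. Over all probe sets 65.6% kept their sign and 8.12% had such a p, there counted with either sign. The controls alone gave 0 calls in limma, with 1453 at an unadjusted p under 0.05. Comfrey-fed birds held 4 females and 4 males in each set, and control birds did not.

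Within each sex, 11 probe sets (0.0615%) were called in females and 216 (1.21%) in males. An unadjusted limma p under 0.05 was reached by 2106 in females and by 1976 in males. Of the 396 higher calls of the main comparison 302 (76.3%) had a larger difference in males than in females, with medians of 0.52 and 0.39. Of the 126 lower calls 54 (42.9%) were larger in males, against 49.9% of all probe sets. Many of the higher calls varied together from bird to bird, so they are not separate observations. The interaction of set and sex gave 0 calls in limma (933 at an unadjusted p under 0.05, lowest adjusted p 0.254), so a difference between the sexes in size was not shown for any gene. GP9 in males ran over 5.71 to 7.54 (median 6.74) in the first set and 7.60 to 9.75 (median 8.95) in the second. In females it ran over 5.94 to 7.25 (median 6.90) and 6.74 to 8.29 (median 7.92), and bird 18 lay within the first set's range. The differences were 2.17 in males and 1.07 in females, an interaction of 1.10 ± 0.44 (adjusted p = 0.862). The genes with the smallest interaction p among those higher in males were SPATA13 (1.27 in males, 0.22 in females), PPP1R3C (1.17 and 0.34) and PDGFB, a growth factor of platelet granules (0.82 and 0.19), each with an adjusted p of 0.737. Of 88 probe sets called when males were fitted alone, 87 had the same sign in females alone. In females alone 73 of them had an unadjusted p under 0.05. Over all probe sets the shares were 65.1% and 14.4%, the latter counted with either sign. Females alone gave 0 calls in limma, with 2573 at an unadjusted p under 0.05, against 1812 in males alone.

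**Figure D5:**
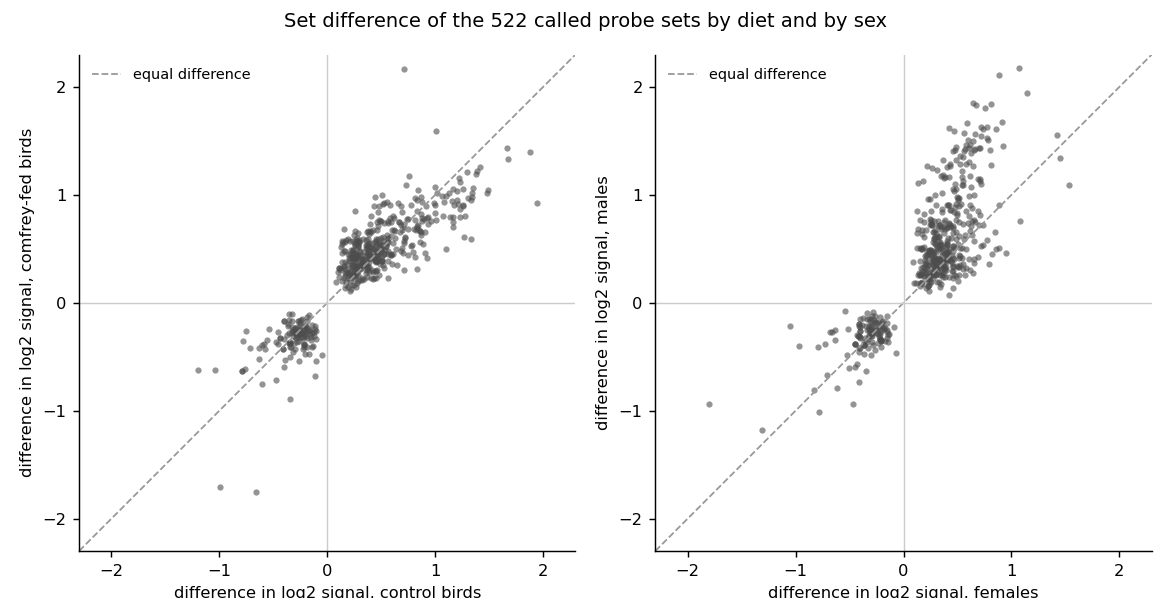
Set difference in log2 signal of the 522 called probe sets, in comfrey-fed against control birds (left) and in males against females (right), with 1 point per probe set and a dashed line of equal difference. All points lie in the quadrants of equal sign, and 302 of the 396 higher probe sets (76.3%, against 49.9% of all probe sets) are larger in males. The probe sets were chosen on all birds together, so the equal signs are a description.

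Because the second set held more males, the sex comparison was run with and without the set as a covariate, after seeing the data. Limma called 958 probe sets (5.35%) between males and females without the set and 869 (4.86%) with it. Off the Z and W chromosomes, 9796 probe sets with 1 symbol were tested. Those called higher in males numbered 178 without the set and 140 with it, 120 of them in both. Those called lower in males numbered 110 and 92. The difference between males and females went from 0.89 (adjusted p = 0.0387) to 0.63 (0.0662) for HTR2A, from 0.44 (adjusted p = 0.0385) to 0.31 (0.0697) for PDGFB and from 0.84 (adjusted p = 0.0434) to 0.57 (0.058) for SELE, a selectin of activated endothelium. The Z-linked SNCAIP went from 1.06 (adjusted p = 0.000273) to 0.86 (5.90e-05). The comfrey diet gave 0 calls in limma with the set (1539 at an unadjusted p under 0.05) and without it (1429).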

How the data were processed

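Blood RNA of 32 chickens was measured on 1 Affymetrix array per bird. The deposited values are log2 signals per probe set, one column per array, made by the authors with GCOS 1.1.1 and RMA per the submitters' processing notes. The notes name no filter, with the genome build likewise not given in the sources used here. RMA equalises the distribution of signals between arrays, so a change shared by most genes would not show. Of 20804 rows 2910 were blank, and all other 17894 were tested with no filter on dim signals. Of these, 10264 carried 1 gene symbol (9680 genes), 182 several and 7448 none, in the platform annotation with symbols updated through RefSeq. Among the 17894 tested rows, 824 repeated another row's values.

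Birds were grouped by the number in their title. Each array is a separate bird and served as the replicate. The set difference came from a linear model in R 4.3.3 with empirical Bayes moderation by limma 3.58.1, with diet and sex as covariates over all 32 arrays and Benjamini-Hochberg adjustment over all 17894 probe sets, at a threshold of 0.05. Interactions with diet and sex used the same method. The set fit was tested on simulated data, and the interaction fits were not. Tables were made in pandas 2.3.3 and numpy 2.4.6 under Python 3.11.15, and figures in matplotlib 3.10.9. Differences are log2 signal in birds 17 to 32 minus birds 1 to 16, adjusted for diet and sex, with SE.

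Named genes are the 14 largest rises and 14 largest falls among called probe sets with 1 symbol (the probe set with the smallest p per gene, same sign in both diets and both sexes), up to 8 members of each list with the smallest p, up to 6 genes per direction for an interaction, and GP9, FLI1 and ITGB3. Apart from the references HINTW, HBAD and HBA1, other genes were named after their values were seen. The text marks many of them, and VWF, TLR5, TIRAP, INPP5D, MIR29C, MIR29B2, SELE and SNCAIP belong with them. A gene in a list is read from its single-symbol probe set with the highest mean signal. The members and lists were chosen with earlier results of these data known. The lists of Toll-like receptors, actin and adhesion, immunoreceptor signalling and microRNA genes, the marker covariate and the sex and diet fits without the set were added after seeing the data. Alternatives changed the covariates, scaling, filter, repeated rows, variance prior, array weights, samples fitted and the bird left out. No sequences were used here.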

Additional observations from a re-analysis of the deposited data

How the results depend on the processing

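With arrays centred on their medians or quantile normalized again, repeated rows merged, a robust variance trend, no covariates, a mean per diet and sex, or the number within the set added, the total, higher and lower counts stayed within 1.5 times of the reported ones. With the bird number as a linear term in place of the sets, 857 probe sets were called and 346 were lower, while cytotoxic genes gave 5 higher calls and red cell genes 3 lower calls. Testing only probe sets above the median signal, which leaves fewer features, gave 80 lower calls, 1 cytotoxic and 0 red cell. Array weights gave 210 lower and 4 cytotoxic calls. The cause of the shifts under the linear term and the weights was not tested. With the mean of GP9, FLI1 and ITGB3 as a covariate, added after seeing the data, the total, higher, lower, thrombocyte, T cell, cytotoxic and red cell counts were all 0 in limma. In that fit 48 of 59 called named genes kept their direction without passing, and 11 changed sign: CST7 to -0.072, F13A1 to -0.27, HTR2A to -0.21, ITGB3 to -0.13, KLF6 to -0.13, PLEK to -0.019, PRKCB to -0.049, RGS18 to -0.029, SLC6A4 to -0.13, SSFA2 to -0.027 and TUBB1 to -0.21. GP9, FLI1 and ITGB3 make up the covariate, so their differences in that fit offset each other by construction. The changed sign of ITGB3 and the kept signs of GP9 and FLI1 are therefore no result. Fitted alone, comfrey-fed birds gave 112 calls, control birds 0, females 0 and males 88, each with fewer samples. Leaving out 1 bird at a time gave 372 (without bird 2) to 807 (without bird 13) calls, 302 to 488 higher and 65 to 319 lower. The list counts then ran from 13 to 14 for thrombocyte, 3 to 11 for T cell, 2 to 4 for cytotoxic and 1 to 2 for red cell genes. The interactions with diet and with sex gave 0 to 1 calls, the 1 coming without bird 23 and without bird 15 respectively. Of the 59 called named genes 16 lost the call in at least 1 such fit, 5 with no covariates, 5 under the linear term, 3 with a mean per diet and sex and 3 with array weights. No paired analysis was possible because bird numbers do not repeat between the sets. Signals of some lower calls (CCDC102B, TTR, FGG) and some higher calls (TLR2, MIR181B1, MIR199B) were low, and the arrays give no depth.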
